A study of Mus musculus with 6 samples.

Results

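The genes described here are 32 genes of cholesterol and fatty acid synthesis, out of 56748 genes in the count table. The cells were mouse adipose-derived stem cells (ADSC), a stromal culture taken from fat. They were chosen by name for their place in the 2 pathways, and each matched 1 row of the table. They comprise 5 genes of the SREBP factors and their regulators, 7 enzymes of the isoprenoid steps, 11 enzymes of the sterol steps, the sterol carrier Stard4, 3 enzymes of fatty acid synthesis, and 5 enzymes of fatty acid elongation and desaturation. All 32 passed the filter on low counts, which 14502 genes passed.

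The study asked what expressing 2 leukocyte integrins does to these cells: VLA-4, made of Itga4 with Itgb1, which binds VCAM-1, and LFA-1, made of Itgal with Itgb2, which binds ICAM-1. The 3 libraries labelled overexpressing came from ADSC transduced with both integrins at once, and the 3 libraries labelled mock from the comparison cells. Those carried an empty vector by the treatment protocol, were unmodified by the design text, and have the genotype label WT. All cultures shared the same serum-containing medium with normal glucose, and the sources used here do not give the vector, its promoter, the mouse strain or whether replicates were separate cultures. The p-values therefore cover only variation among these libraries, possibly technical.

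Library totals were 15723888 to 18185832 counts in the libraries labelled overexpressing and 16904703 to 18381083 in those labelled mock. The transduced subunits did not follow the label. Itga4 and Itgb1 were lower in the libraries labelled overexpressing, with log2 fold changes of -1.38 and -0.32 (edgeR adjusted p = 1.28e-05 and 9.16e-05). Itgal had 1 to 4 counts in each library labelled overexpressing and 0 to 4 in each labelled mock, and Itgb2 had 2 to 9 against 6 to 18. Every direction below is therefore between libraries as labelled. Summed over 8 stromal markers, levels were 2104 to 2193 CPM (counts relative to TMM-adjusted library totals) in the libraries labelled overexpressing and 3052 to 3063 CPM in those labelled mock. Of the 8, Thy1, Pdgfrb, Eng and Ly6a were lower, Cspg4 was higher (2.23-fold), and Pdgfra, Cd44 and Nt5e were not called. The mature adipocyte markers Cidec, Lep, Retn and Cfd had no count in any library, Adipoq had at most 2 and Plin1 at most 3. The other 2 of the 8 encode lipases: Pnpla2 was higher (log2 fold change 0.93, edgeR adjusted p = 1.18e-07) and Lipe, with 56 to 87 counts, was not called. Summed, the 8 had 48.4 to 59.4 CPM in the libraries labelled overexpressing and 24.4 to 34.2 CPM in those labelled mock. The sum of 6 endothelial markers was 21.97 to 22.8 CPM in the libraries labelled overexpressing and 15.6 to 18.4 CPM in those labelled mock. Of these, Tek was higher, with means of 15.5 CPM in the libraries labelled overexpressing and 6.02 CPM in those labelled mock. Pecam1 was lower, and Cdh5 and Kdr were not called, with log2 fold changes of -0.43 and -0.56. The sum of 7 macrophage markers was 14.04 to 16.8 CPM in the libraries labelled overexpressing and 16.4 to 21.1 CPM in those labelled mock. These 2 ranges overlapped. Summed levels of 7 Schwann cell markers were 0.957 to 1.28 CPM in the libraries labelled overexpressing and 23.6 to 31.9 CPM in those labelled mock, and 6 of the 7 were lower without overlap. Whether these cells take part in the results below was not tested. In bulk RNA, fewer cells of a type and less RNA per cell cannot be told apart.

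Cholesterol is built from acetyl-CoA, first through the isoprenoid steps, which end in farnesyl pyrophosphate, and then through the sterol steps, which begin with squalene. Fatty acids are built from the same acetyl-CoA, then lengthened and desaturated in the endoplasmic reticulum. The SREBP proteins, encoded by Srebf1 and Srebf2, are membrane-bound transcription factors of both pathways: Scap escorts them to the Golgi, where they are cut and released, and the Insig proteins hold Scap back when sterols are plentiful. SREBPs bind a sterol element and act together with NF-Y, which binds CCAAT, and with Sp1, which binds GC-rich boxes.

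The windows around the start sites of 2 members that were higher (Fasn and Insig1) and 2 that were lower (Hmgcs1 and Msmo1) in the libraries labelled overexpressing are printed to show these elements in genes that moved in opposite directions. They run from 250 bases before to 50 after the start, 5′ to 3′ on the strand of the gene, and are RefSeq sequence of build GRCm38.p6. Capitals mark matches to TCACNCCA (the sterol element without its last base), CCAAT and GGGCGG on either strand. The windows are chr11:120824498-120824797 on the minus strand for Fasn, chr5:28071162-28071461 on the plus strand for Insig1, chr13:119690101-119690400 on the plus strand for Hmgcs1, and chr8:64733529-64733828 on the minus strand for Msmo1.
Fasn: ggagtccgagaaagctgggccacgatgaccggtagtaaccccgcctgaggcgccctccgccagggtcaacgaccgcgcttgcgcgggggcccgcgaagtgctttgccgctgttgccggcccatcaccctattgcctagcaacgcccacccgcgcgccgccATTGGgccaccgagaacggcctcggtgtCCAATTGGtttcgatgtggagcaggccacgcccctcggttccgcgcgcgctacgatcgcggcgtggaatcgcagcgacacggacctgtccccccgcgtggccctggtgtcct
Insig1: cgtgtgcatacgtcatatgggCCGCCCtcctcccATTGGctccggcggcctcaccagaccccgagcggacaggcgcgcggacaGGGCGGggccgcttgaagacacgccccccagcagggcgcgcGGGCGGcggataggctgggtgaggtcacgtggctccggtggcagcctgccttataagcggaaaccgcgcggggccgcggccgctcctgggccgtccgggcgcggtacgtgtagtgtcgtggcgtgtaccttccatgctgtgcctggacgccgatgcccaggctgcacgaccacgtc
Hmgcs1: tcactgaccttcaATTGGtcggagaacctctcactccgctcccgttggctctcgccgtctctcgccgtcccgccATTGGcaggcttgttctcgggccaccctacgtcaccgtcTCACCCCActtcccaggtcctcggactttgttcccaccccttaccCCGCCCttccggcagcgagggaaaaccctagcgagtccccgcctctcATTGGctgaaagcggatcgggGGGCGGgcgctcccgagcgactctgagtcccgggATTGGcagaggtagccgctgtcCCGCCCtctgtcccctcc
Msmo1: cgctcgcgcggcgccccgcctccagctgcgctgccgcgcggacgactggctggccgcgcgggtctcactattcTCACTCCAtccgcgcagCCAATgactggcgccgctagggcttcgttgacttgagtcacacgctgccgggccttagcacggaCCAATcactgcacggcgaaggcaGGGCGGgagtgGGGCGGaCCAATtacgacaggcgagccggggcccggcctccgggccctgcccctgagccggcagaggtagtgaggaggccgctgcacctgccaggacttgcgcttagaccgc

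RefSeq windows matched 25 of the 32 members by symbol, with 33 windows in all because some genes have several starts. CCAAT was found in 21 of the 33 windows (63.6%), against 37.4% of all 32851 windows of the same length. GGGCGG was found in 25 (75.8%, against 35.7% of all windows) and the E-box CACGTG in 6 (18.2%, against 7.15%). Those 6 windows belong to 5 genes, because overlapping windows of Scap hold the same site. All windows include those of genes that did not pass the filter on low counts, which every member did. A comparison with the windows of expressed genes alone was not made. The sterol element TCACNCCAC was found in 1 window (3.03%, against 1.24%), that of Hmgcs1, where it starts at position -137 from the start site. Both strands were searched, and opposite matches can overlap, as the CCAAT and ATTGG of Fasn do in CCAATTGG. Fasn and Insig1, which rose, and Hmgcs1 and Msmo1, which fell, all held CCAAT in their windows. TCACNCCA was found once each in those of Hmgcs1 and Msmo1 and not in those of Fasn and Insig1, and GGGCGG was found in all but that of Fasn. The only other member with TCACNCCA was Srebf2, which was not called. Cyp51, Nsdhl, Sc5d and Fads2 also fell, and their windows did not hold it. The 4 printed windows thus do not stand for all members that rose or fell. A match is a description of the letters and does not show binding. Only exact words within these windows were searched, so a missing match does not show that a gene lacks the element.

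By the quasi-likelihood test of edgeR, at an adjusted p under 0.05, 14 of the 32 members changed (43.8%), against 45.3% of all tested genes. Of these, 6 were higher in the libraries labelled overexpressing (22.3% of all tested genes were) and 8 were lower (23.0% of all tested genes). The share of members called was thus near that of the table as a whole, and their median log2 fold change was 0.00, beside 0.01 over all tested genes. The called members went in opposite directions and the log2 fold changes of all 32 ran from -0.72 (Fads2) to 0.77 (Elovl6). The groups did not overlap for 16 members (50%, against 53.4% of all tested genes), which were the 14 called genes together with Sqle and Scd2. Scaling by library size alone, with no correction for composition, raised the median over all genes by 0.11 on the log2 scale. That scaling called 48.2% of all tested genes, and 11 members were higher (31.7% of all tested genes) and 5 lower (16.4%), and the share of all called genes that were higher was 65.8%, against 49.2% with the scaling used here. The authors' deposited table called 5 members higher and 8 lower at an adjusted p under 0.05. It called 21.8% of the 25991 genes it compared. That set is wider than the 14502 genes that passed the filter on low counts here, as all members did. The 21.8% is therefore not a like base for the members.

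**Figure D1:**
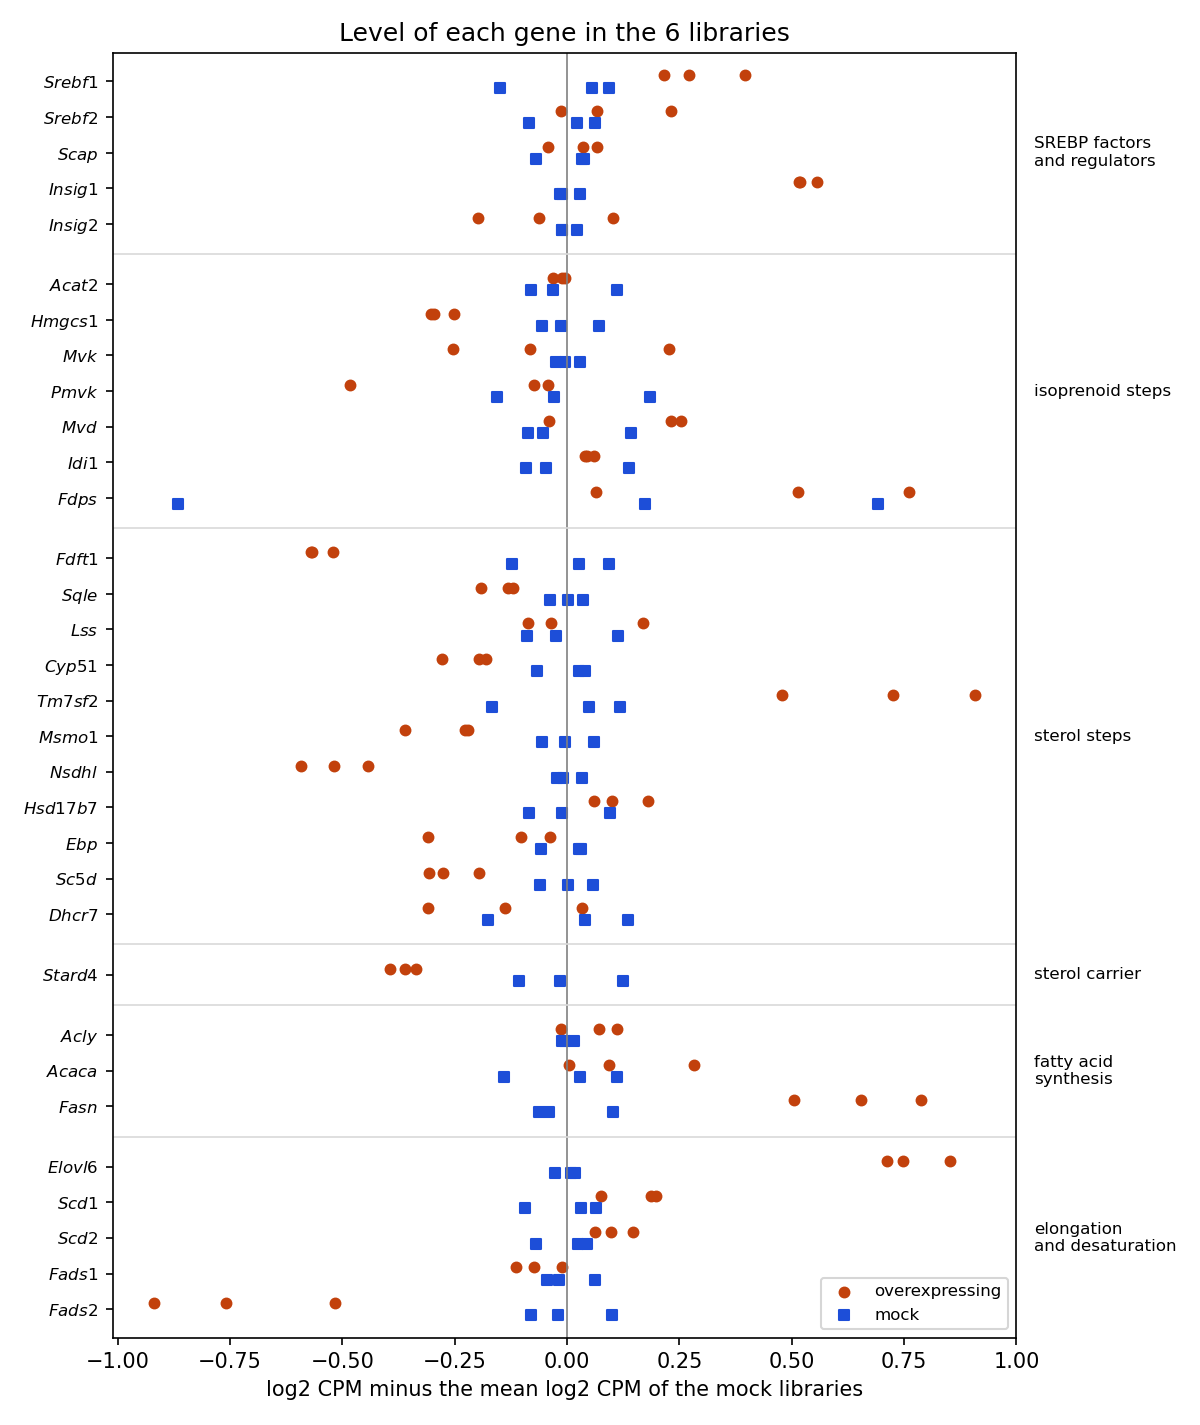
Level of each of the 32 genes in each library, as log2 CPM minus the mean log2 CPM of the libraries labelled mock (horizontal axis), with genes in pathway order (vertical axis). Circles are the 3 libraries labelled overexpressing and squares the 3 labelled mock. Fasn, Elovl6 and Insig1 lie clearly to the right of the mock libraries, and Fads2, Fdft1 and Nsdhl to the left.

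Among the SREBP factors and regulators, 2 of 5 rose and 3 did not pass the test (40% called, against 45.3% of all tested genes). Srebf1 (chromosome 11, 60089915 to 60113407, mm39), which encodes the SREBP form tied mainly to fatty acid synthesis, had 106, 93.7 and 97.4 CPM in the libraries labelled overexpressing and 86.1, 72.8 and 83.9 CPM in those labelled mock. The groups did not overlap, and its log2 fold change was 0.29 (SE 0.070, edgeR adjusted p = 0.00156). Insig1 (chromosome 5, 28276361 to 28283660), whose product anchors Scap in the endoplasmic reticulum and whose gene is itself an SREBP target, had 86.9, 89.3 and 87.0 CPM in the libraries labelled overexpressing, against 60.1, 61.9 and 60.2 CPM in those labelled mock. All 3 libraries labelled overexpressing were higher, and the log2 fold change was 0.53 (SE 0.062, edgeR adjusted p = 2.85e-07), or 1.44-fold.

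The other 3 regulators were not called. Srebf2, which encodes the SREBP form tied mainly to cholesterol synthesis, averaged 162 ± 14.3 CPM in the libraries labelled overexpressing and 152 ± 7.91 CPM in those labelled mock (SD, n = 3 each). Its log2 fold change of 0.10 had a 95% confidence interval of -0.04 to 0.23, and with library size alone it was called higher (0.21, edgeR adjusted p = 0.00892). Scap, the escort, averaged 86.5 ± 3.32 and 85.3 ± 3.55 CPM in the libraries labelled overexpressing and mock, and its interval was -0.11 to 0.15. Insig2, the second anchor of Scap, had 49.2, 55.2 and 44.8 CPM in the libraries labelled overexpressing and 51.0, 51.0 and 52.2 CPM in those labelled mock, and its interval was -0.21 to 0.11.

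Because a ratio of 2 genes within a library does not depend on how libraries are scaled, 4 pairs of related genes were compared in this way on deposited FPKM (counts per length and depth). The exact two-sided permutation test of 3 against 3 libraries cannot go below p = 0.1, so it cannot reach 0.05, and the 4 p-values are given unadjusted. The Insig1 to Insig2 ratio was 1.98, 1.82 and 2.18 in the libraries labelled overexpressing and 1.32, 1.36 and 1.3 in those labelled mock. The groups did not overlap (exact permutation p = 0.1), and the ratio was 1.50-fold higher in the libraries labelled overexpressing. The Srebf1 to Srebf2 ratio was 0.854, 0.797 and 0.699 in the libraries labelled overexpressing and 0.713, 0.650 and 0.677 in those labelled mock, with groups that overlapped (exact permutation p = 0.2).

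In the isoprenoid steps, of 7 enzymes 1 fell and 6 did not pass the test (14.3% called, against 45.3% of all tested genes). Hmgcs1 (chromosome 13, 120151915 to 120169796), the cytosolic HMG-CoA synthase, whose window with its sterol element is printed above, had 85.5, 85.1 and 88.1 CPM in the libraries labelled overexpressing and 101, 110.1 and 104 CPM in those labelled mock. Each library labelled overexpressing was below each labelled mock. The log2 fold change was -0.28 (SE 0.060, edgeR adjusted p = 0.000501). It was also lower with library size alone (-0.17, edgeR adjusted p = 0.0219).

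The uncalled isoprenoid enzymes had groups that overlapped. Acat2, the cytosolic thiolase that joins 2 acetyl-CoA units, averaged 31.5 ± 0.289 CPM in the libraries labelled overexpressing and 31.9 ± 2.24 CPM in those labelled mock. Mvk, mevalonate kinase, averaged 23.5 ± 4.04 CPM in the libraries labelled overexpressing and 23.9 ± 0.438 CPM in those labelled mock. Pmvk, the kinase that follows it, averaged 4.48 ± 0.724 and 5.12 ± 0.62 CPM in the libraries labelled overexpressing and mock. Mvd, mevalonate diphosphate decarboxylase, averaged 17.4 ± 1.91 CPM in the libraries labelled overexpressing and 15.7 ± 1.38 CPM in those labelled mock, and Idi1, the isomerase, 19.8 ± 0.147 and 19.2 ± 1.64 CPM. The 95% intervals of their log2 fold changes spanned 0 and, apart from Fdps, ran from the narrowest, Acat2 at -0.19 to 0.15, to the widest, Pmvk, at -0.58 to 0.20.

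Fdps, which makes farnesyl pyrophosphate at the branch point to sterols, could not be judged from these counts. It had 50, 52 and 35 counts in the libraries labelled overexpressing and 18, 53 and 34 in those labelled mock, and its interval of -0.33 to 1.0 was the widest of all members. Of the 50-base words in its longest protein-coding transcript, 86.4% also occur in transcripts of other annotated genes, and 77.3% in Gm43738, a gene on the same strand that overlaps it and had at most 1 count. The sources used here do not say how reads shared by several genes were counted, so its level is uncertain. Acat2 shares 45.9% of its words with Acat3 and Idi1 shares 30.5% with other genes. By contrast, 25 of the 32 members share under 5%.

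In the sterol steps 5 of 11 enzymes fell, 1 rose and 5 did not pass the test (54.5% called, against 45.3% of all tested genes). Fdft1 (chromosome 14, 63382599 to 63417027), squalene synthase, which commits farnesyl pyrophosphate to sterols, had 47.4, 45.8 and 45.9 CPM in the libraries labelled overexpressing and 69.3, 62.5 and 72.6 CPM in those labelled mock. The groups were far apart, and its log2 fold change was -0.56 (SE 0.072, edgeR adjusted p = 1.41e-06). Fdft1 overlaps Ctsb on the opposite strand by 774 bases and shares 19.9% of its words with it, and Ctsb had 13722 to 16190 counts in the libraries labelled overexpressing and 17583 to 18056 in those labelled mock. The sources used here do not give the strand setting of the counting, so reads from the overlap cannot be told apart.

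Nsdhl (chromosome X, 71962163 to 72002120), a sterol dehydrogenase that removes a methyl-derived carbon, had 26.9, 24.2 and 25.5 CPM in the libraries labelled overexpressing and 36.3, 36.0 and 37.4 CPM in those labelled mock. Its log2 fold change was -0.52 (SE 0.082, edgeR adjusted p = 2.07e-05), and it shares none of its words with other genes. Msmo1, the methyl sterol oxidase that acts just before Nsdhl and whose window is printed above, averaged 72.7 ± 3.88 CPM in the libraries labelled overexpressing and 87.6 ± 3.49 CPM in those labelled mock (log2 fold change -0.27, SE 0.064, edgeR adjusted p = 0.00152). Hsd17b7, the ketosteroid reductase that acts after Nsdhl in the same demethylation, was not called, with 145, 141 and 153 CPM in the libraries labelled overexpressing and 145, 134 and 128 CPM in those labelled mock (interval -0.01 to 0.24). Of the 3 enzymes of this demethylation, 2 were lower and Hsd17b7 was called higher with library size alone only (0.22, edgeR adjusted p = 0.00374).

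Cyp51, lanosterol demethylase, and Sc5d, a sterol desaturase late in the pathway, were also lower. Cyp51 averaged 86.7 ± 3.13 CPM in the libraries labelled overexpressing and 101 ± 3.99 CPM in those labelled mock, and Sc5d 78.9 ± 3.17 and 94.4 ± 3.88 CPM, with log2 fold changes of -0.22 (edgeR adjusted p = 0.00554) and -0.26 (edgeR adjusted p = 0.0015). The calls of Cyp51, Msmo1 and Sc5d ended with library size alone, where the edgeR adjusted p-values were 0.165, 0.0507 and 0.057 and all 3 kept a negative log2 fold change. Those of Fdft1, Nsdhl and Hmgcs1 did not end there.

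Tm7sf2 (chromosome 19, 6112851 to 6118403), a sterol reductase that acts on the product of Cyp51, was the sterol enzyme that rose. It was a gene of low level, with 100, 104 and 129 counts in the libraries labelled overexpressing and 73, 60 and 64 in those labelled mock. These gave 5.32, 6.31 and 7.17 CPM, against 4.14, 3.40 and 3.95 CPM (log2 fold change 0.71, SE 0.185, edgeR adjusted p = 0.00322). Its interval of 0.32 to 1.09 was wide, and it overlaps Vps51 on the same strand by 532 bases, a gene with 318 to 404 counts in the libraries labelled overexpressing and 274 to 297 in those labelled mock. Lbr, the lamin B receptor, which catalyses the same reduction, averaged 4.96 ± 0.294 FPKM in the libraries labelled overexpressing and 4.79 ± 0.211 FPKM in those labelled mock and was not called (interval -0.13 to 0.25). Tm7sf2 averaged 1.41 ± 0.208 and 0.866 ± 0.084 FPKM, so it stayed below Lbr per length in both groups.

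The remaining sterol enzymes did not pass the test. Sqle, squalene epoxidase, had 66.3, 63.1 and 65.8 CPM in the libraries labelled overexpressing and 70.2, 73.9 and 72.2 CPM in those labelled mock. Those groups did not overlap, but its log2 fold change of -0.15 had an edgeR adjusted p of 0.064 and moved to -0.04 with library size alone. Lss, lanosterol synthase, averaged 38.2 ± 3.66 and 37.8 ± 2.75 CPM, Ebp, a sterol isomerase, 18.9 ± 1.81 and 20.9 ± 0.722 CPM, and Dhcr7, the last reductase of the pathway, 11.8 ± 1.40 and 12.9 ± 1.40 CPM, in the libraries labelled overexpressing and mock. Their intervals were -0.16 to 0.20, -0.35 to 0.06 and -0.40 to 0.13.

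Stard4, a soluble carrier that moves cholesterol between membranes and an SREBP target, was lower. It had 24.9, 24.4 and 25.4 CPM in the libraries labelled overexpressing and 29.7, 34.9 and 31.7 CPM in those labelled mock, with no overlap. The log2 fold change was -0.37 (SE 0.087, edgeR adjusted p = 0.00148). Of the 24 cholesterol members, regulators included, 3 rose and 7 fell, with a median log2 fold change of -0.04. That is 41.7% called, near the 45.3% of all tested genes (22.3% higher and 23.0% lower). With library size alone 5 rose and 4 fell, where 31.7% of all tested genes were higher and 16.4% lower.

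**Figure D2:**
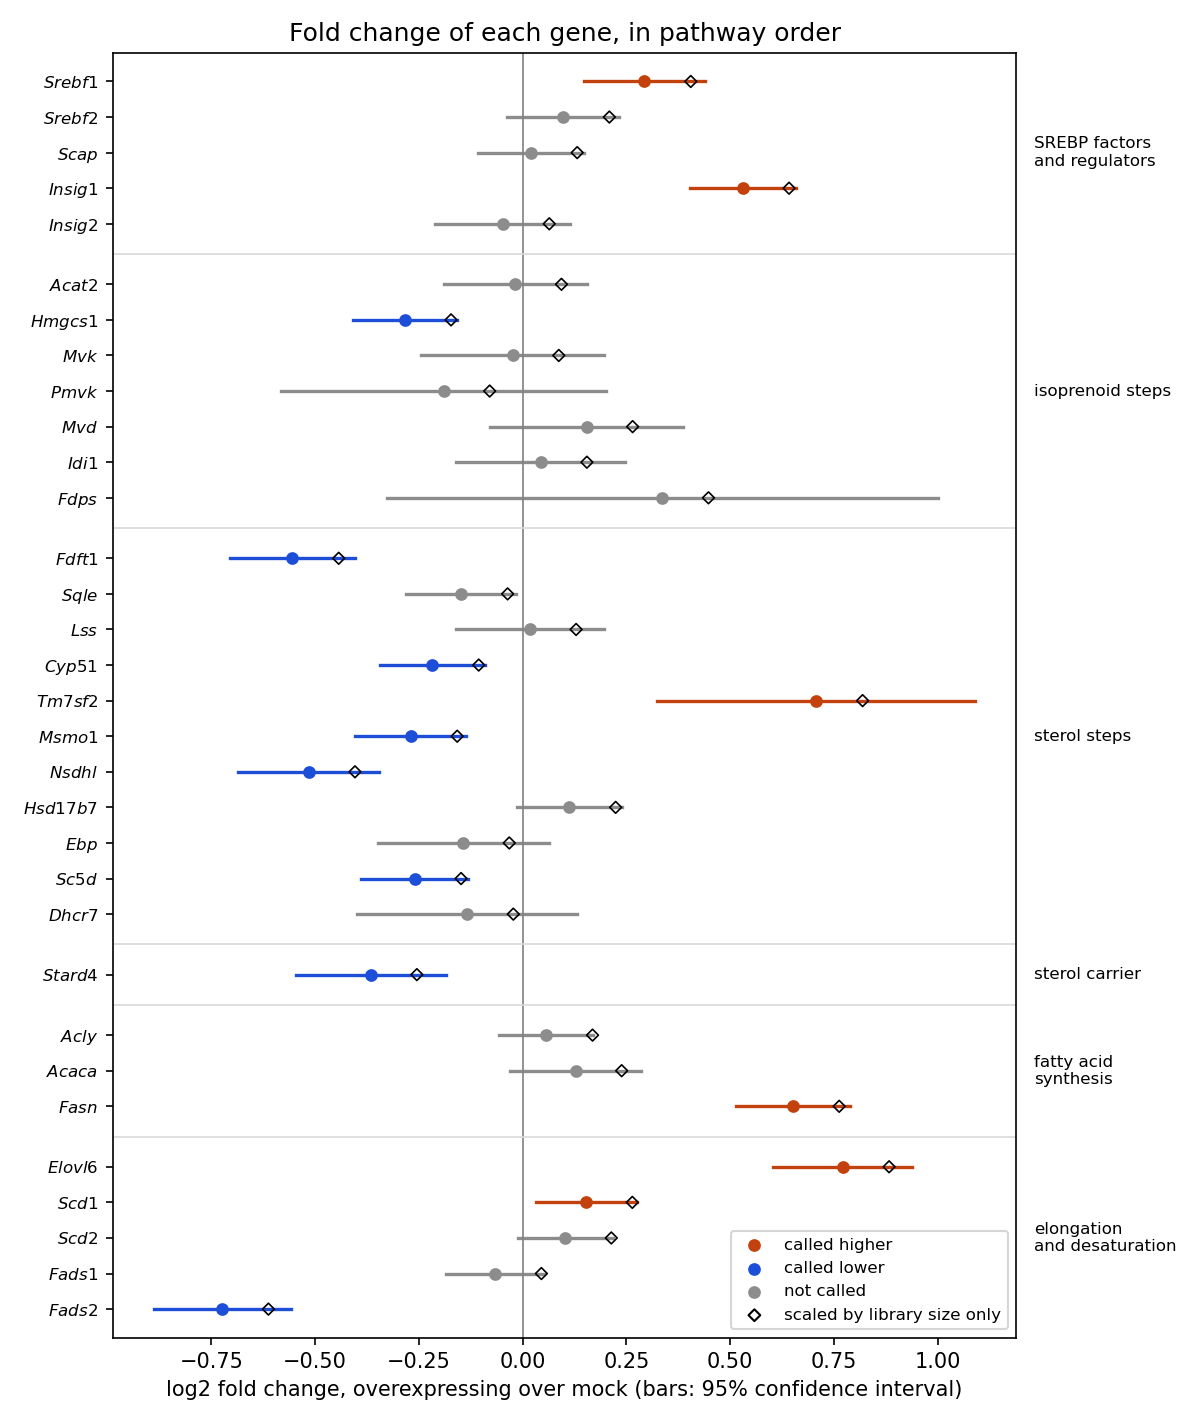
Log2 fold change of each gene, libraries labelled overexpressing over libraries labelled mock (horizontal axis), in pathway order (vertical axis), with the 95% confidence interval as a bar. Filled points use the scaling of the text and are coloured by call, and open diamonds are scaled by library size only, which sit to the right by about 0.11 for every gene. Calls to the right and left are mixed within the sterol steps and within elongation and desaturation.

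In fatty acid synthesis 1 of 3 enzymes rose and 2 did not pass the test (33.3% called, against 45.3% of all tested genes). Fasn (chromosome 11, 120696672 to 120715373), the fatty acid synthase that assembles palmitate, had 488, 441 and 535 CPM in the libraries labelled overexpressing and 333, 297 and 302 CPM in those labelled mock. The lowest library labelled overexpressing stood above the highest labelled mock, and the log2 fold change was 0.65 (SE 0.067, edgeR adjusted p = 3.97e-08), or 1.57-fold. Fasn shares none of its words with other genes. The members that act before it, Acly and Acaca, were not called. Me1, which supplies NADPH and is not a member, was higher and is described below. Acly, the citrate lyase that makes cytosolic acetyl-CoA, averaged 259 ± 11.4 CPM in the libraries labelled overexpressing and 249 ± 2.41 CPM in those labelled mock. The interval of its log2 fold change was -0.06 to 0.17.

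Acaca, the acetyl-CoA carboxylase that makes malonyl-CoA, averaged 86.0 ± 8.58 CPM in the libraries labelled overexpressing and 78.7 ± 6.91 CPM in those labelled mock (interval -0.03 to 0.29). Acaca shares 52.6% of its words with Gm5182, a processed pseudogene on chromosome 12 that had 225 to 275 counts in the libraries labelled overexpressing and 207 to 221 in those labelled mock, so its level is uncertain. Acly and Acaca were both called higher with library size alone (edgeR adjusted p = 0.0123 and 0.0115).

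Of the 5 enzymes of elongation and desaturation, 2 rose, 1 fell and 2 did not pass the test. That is 60% called, against 45.3% of all tested genes (22.3% higher and 23.0% lower). Elovl6 (chromosome 3, 129326004 to 129432144), the elongase that extends palmitate to stearate, had the largest log2 fold change of the 32 members. It had 41.3, 44.4 and 40.3 CPM in the libraries labelled overexpressing and 24.7, 24.2 and 24.9 CPM in those labelled mock. The mock libraries were nearly equal and all 3 others lay far above them, and the log2 fold change was 0.77 (SE 0.081, edgeR adjusted p = 5.99e-08), or 1.71-fold.

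The stearoyl-CoA desaturases make monounsaturated fatty acids. Scd1 had 252, 234 and 254 CPM in the libraries labelled overexpressing and 232, 226 and 208 CPM in those labelled mock (log2 fold change 0.15, SE 0.059, edgeR adjusted p = 0.0375). That call rests on a narrow margin: it ended without mock replicate 2 or 3, without overexpressing replicate 1 or 3, with no filter, and with DESeq2 (adjusted p = 0.0504 to 0.184 over these). Scd2, the member with the highest level, had 696, 679 and 719.7 CPM in the libraries labelled overexpressing and 671, 662 and 619.7 CPM in those labelled mock. Its groups did not overlap, but it was not called (0.10, edgeR adjusted p = 0.138) except with library size alone. The Scd1 to Scd2 ratio was 0.405, 0.384 and 0.395 in the libraries labelled overexpressing and 0.386, 0.382 and 0.375 in those labelled mock, with overlap (exact permutation p = 0.2). The 2 genes lie on chromosome 19 with 87590 bases between them.

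Of the desaturases of polyunsaturated fatty acids, Fads2 fell and Fads1 did not pass the test. Fads2 (chromosome 19, 10040129 to 10079110), which carries out the first desaturation of the essential fatty acids, had 72.8, 65.2 and 86.2 CPM in the libraries labelled overexpressing and 132, 122 and 117 CPM in those labelled mock. No library of 1 group reached the other, and the log2 fold change was -0.72 (SE 0.080, edgeR adjusted p = 1.2e-07), the largest decrease of the 32 members. Fads1 (chromosome 19, 10160252 to 10174241), which acts after it, had 156, 152 and 163 CPM in the libraries labelled overexpressing and 172, 159.6 and 162 CPM in those labelled mock, and was not called (interval -0.18 to 0.05). The gene bodies, Fads1 on the plus and Fads2 on the minus strand, lie 81141 bases apart. Per length, the Fads1 to Fads2 ratio was 1.47, 1.595 and 1.297 in the libraries labelled overexpressing and 0.889, 0.898 and 0.954 in those labelled mock. By this measure Fads1 was above Fads2 in each library labelled overexpressing and below it in each labelled mock (exact permutation p = 0.1, the smallest possible). That turn in order depends on the gene lengths used, 4812 bases for Fads1 and 3295 for Fads2. In CPM, Fads1 was above Fads2 in every library of both groups.

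**Figure D3:**
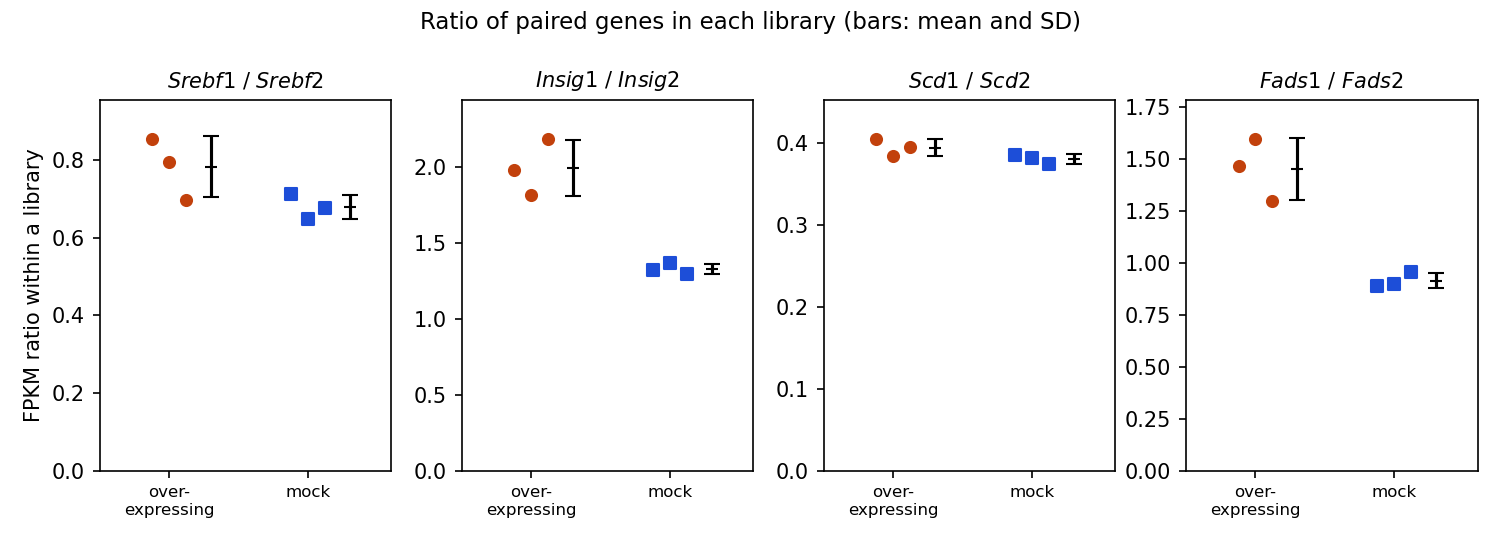
Ratio of 2 related genes within each library, from deposited FPKM (vertical axis, starting at 0), for the libraries labelled overexpressing (left, circles) and mock (right, squares), with the mean and SD of 3 libraries beside them. The Insig1 to Insig2 and Fads1 to Fads2 ratios do not overlap between the groups, and the other 2 ratios do.

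Levels per length, in FPKM, spanned a wide range. Scd2 led with 127 ± 4.13 FPKM in the libraries labelled overexpressing and 119 ± 5.33 FPKM in those labelled mock (SD, n = 3 each), above every other member in every library. In the libraries labelled overexpressing Scd1 (49.96 ± 2.53 FPKM), Acly (48.6 ± 2.35 FPKM) and Fasn (44.1 ± 4.44 FPKM) came next. Their ranges over libraries overlapped, but they kept this order within each library. In the libraries labelled mock the next were Acly (47.0 ± 0.43 FPKM) and Scd1 (45.2 ± 2.69 FPKM), whose ranges also overlapped, with Acly above Scd1 within each library. Then came Fads2 (37.3 ± 2.43 FPKM) and Fads1 (34.0 ± 1.25 FPKM), with Fasn at 28.2 ± 1.76 FPKM below both. Fads2 thus ranked 8 of the 32 in the libraries labelled overexpressing and 4 in those labelled mock, and Insig1 ranked 7 and 11. Hsd17b7 had the highest FPKM among the sterol enzymes in both groups, at 28.4 ± 1.31 FPKM in the libraries labelled overexpressing and 26.4 ± 1.71 FPKM in those labelled mock. Ranks in FPKM depend on the deposited gene lengths, which were 5104 bases for Hsd17b7 and 6144 for Msmo1. Their longest protein-coding transcripts have 4612 and 2044 bases. Elovl6, the member with the largest increase, stayed low at 6.46 ± 0.297 FPKM, against 3.81 ± 0.043 FPKM in mock. Fdps, with its uncertain counts, and Tm7sf2 were lowest.

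**Figure D4:**
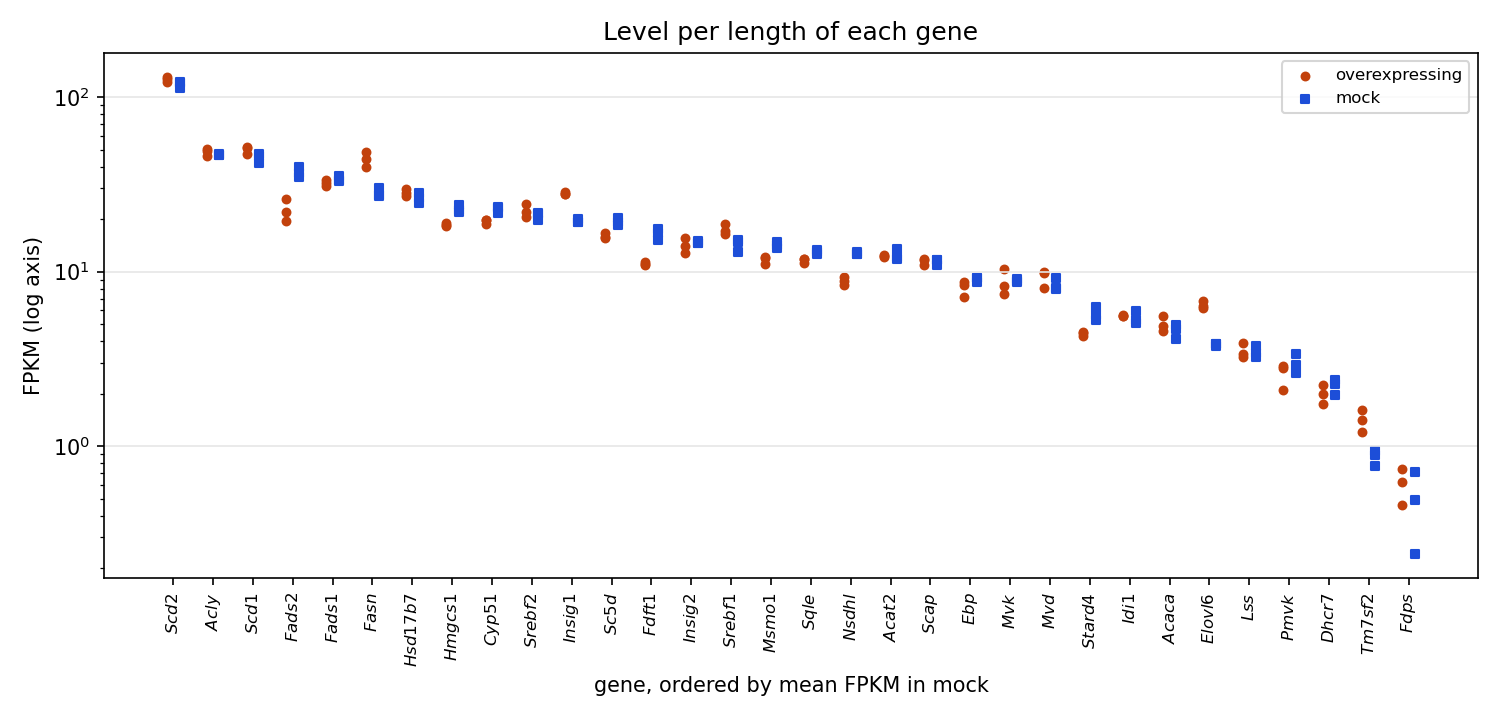
Deposited FPKM of each gene in each library (vertical log axis), with genes ordered by their mean in the libraries labelled mock (horizontal axis). Circles are the libraries labelled overexpressing, drawn left of the squares for those labelled mock. Scd2 stands above all other members, and the symbols of Fads2, Fasn, Insig1 and Elovl6 separate by group.

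Of 54 further genes in 4 lists of the same pathways, 53 were in the table and 47 were tested, of which 9 rose and 13 fell. That is 46.8% called, near the 45.3% of all tested genes (22.3% higher and 23.0% lower). The 6 left untested, among them Scd3, Scd4 and the lipogenic factor Mlxipl, had at most 7 counts in a library. In SREBP processing and turnover, 2 of 11 rose and 1 fell. Spring1, which helps mature the protease that first cuts SREBPs, had 47.6, 46.7 and 46.4 CPM in the libraries labelled overexpressing and 30.6, 33.8 and 34.2 CPM in those labelled mock (log2 fold change 0.51, SE 0.077, edgeR adjusted p = 1.04e-05). Mbtps1, that protease, averaged 155 ± 0.783 CPM in the libraries labelled overexpressing and 170.3 ± 4.95 CPM in those labelled mock (-0.14, edgeR adjusted p = 0.0432), a call that ended under 8 of the 11 alternatives. These were library size alone (adjusted p = 0.717), no filter (0.0682) and each of the 6 fits that left out a library (0.0552 to 0.150). Nr1h2, which encodes an oxysterol receptor of the LXR family, rose by 0.32 on the log2 scale (edgeR adjusted p = 0.000573).

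Of 8 other isoprenoid and sterol enzymes, 2 fell (23.0% of all tested genes were lower). Por, the reductase that passes electrons to Cyp51 and Sqle, averaged 183 ± 11.8 CPM in the libraries labelled overexpressing and 215 ± 3.13 CPM in those labelled mock (-0.23, edgeR adjusted p = 0.00249). Ggps1, which diverts farnesyl pyrophosphate to geranylgeranyl pyrophosphate, fell by 0.28 on the log2 scale (edgeR adjusted p = 0.00259). Both calls ended with library size alone.

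In the list of other fatty acid synthesis, elongation and activation genes, 5 of 23 rose and 8 fell. That is 56.5% called, against 45.3% of all tested genes (22.3% higher and 23.0% lower). Hacd4, a dehydratase of the elongation cycle, had 19.4, 18.5 and 23.2 CPM in the libraries labelled overexpressing and 45.3, 45.7 and 45.1 CPM in those labelled mock. Its log2 fold change was -1.16 (SE 0.090, edgeR adjusted p = 4.74e-10), larger in size than that of any of the 32 members, and its relative Hacd1 fell by 0.73. Elovl6 and these 2 genes, all of the elongation cycle, moved in opposite directions. Other genes of the cycle in this list were higher, lower or not called, so the cycle had no single direction. Me1, the malic enzyme that supplies NADPH to fatty acid synthesis, averaged 254 ± 14.7 CPM in the libraries labelled overexpressing and 184 ± 17.8 CPM in those labelled mock (0.47, edgeR adjusted p = 5.01e-06). Acsl4, which activates polyunsaturated fatty acids, fell by 0.36 on the log2 scale (edgeR adjusted p = 1.47e-05).

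Of 5 glycerolipid synthesis genes, 1 rose and 2 fell (60% called, against 45.3% of all tested genes). Lpin1, the phosphatidate phosphatase, had 73.9, 75.3 and 75.7 CPM in the libraries labelled overexpressing and 33.4, 33.2 and 31.7 CPM in those labelled mock. Its log2 fold change was 1.19 (SE 0.070, edgeR adjusted p = 3.08e-12), or 2.29-fold, beside 0.65 for Fasn and 0.77 for Elovl6. The acyltransferases Gpam and Agpat2, which act before it, fell by 0.32 and 0.43 (edgeR adjusted p = 0.00127 and 0.00259).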

How the data were processed

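RNA sequencing of 6 ADSC libraries was grouped by sample title. The submitters' processing notes name fastp, HISAT2 (2.0.5), StringTie (1.3.3b), featureCounts (1.5.0-p3) and build mm39, without roles. The sources used here do not give the annotation or strand setting. Raw counts were deposited, and FPKM values whose library scale was 0.964 to 0.966 of the total count in mock and 1.04 to 1.06 in overexpressing libraries. The authors also deposited log2 fold changes and p-values, used here only for the number of their calls, and group means as a scaled signal, which were not used.

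Counts were tested with edgeR (4.0.16, R 4.3.3) quasi-likelihood after TMM scaling and filterByExpr (minimum count 10), with Benjamini-Hochberg adjustment over 14502 genes and no replicate block. CPM use TMM-scaled library sizes. Log2 fold changes are overexpressing minus mock, and SE is the fold change over the root of F. A library's floor of 3 counts was 0.163 to 0.191 CPM, and 29 of 32 members had at least 100 counts in every library. On simulated data the procedure was tested for recovery of known changes. Replicates differed by more than sampling noise, with chi-square values of 3.55 to 7.47 for each degree of freedom. Members and lists were chosen with earlier results of these data known, and of the further genes up to 4 called per list with the smallest p are named, and Lbr was named after its values were seen. A further called gene is not reported here. Shared 50-base words come from GENCODE M21 transcripts. Alternatives were RLE factors, library size only, no filter, DESeq2 (1.42.0), a replicate block and leaving out each library.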

Additional observations from a re-analysis of the deposited data

How the results depend on the processing

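Of the 32 members, 10 kept their call and direction under all 11 alternatives: Srebf1, Insig1, Hmgcs1, Fdft1, Tm7sf2, Nsdhl, Stard4, Fasn, Elovl6 and Fads2. Library size only gave 11 members higher and 5 lower, in place of 6 and 8. For cholesterol members it gave 5 higher and 4 lower, for fatty acid members 6 higher, and for the further pathway genes 14 higher and 7 lower. It called 31.7% of all tested genes higher and 16.4% lower. It shifts every log2 fold change by about the same amount, so small changes cross the threshold. Uncalled members turned sign with it: Insig2 to 0.064, Acat2 to 0.093, Mvk to 0.087 and Fads1 to 0.045. Signs of 6 uncalled members also turned when 1 library was left out. Their log2 fold changes ran from -0.016 to 0.054 for Scap, -0.12 to 0.021 for Insig2, -0.061 to 0.039 for Acat2, -0.17 to 0.084 for Mvk, -0.0040 to 0.11 for Idi1 and -0.062 to 0.074 for Lss. Over the 6 fits that left out a library, 5 to 6 members were higher and 8 lower, and the log2 difference of the Insig1 to Insig2 ratio ran from 0.52 to 0.65 and that of Fads1 to Fads2 from 0.60 to 0.75. The shorter sterol element TCACNCCA was found in 3 member windows in place of 1.

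Replicate numbers share no stated source, and deviations of same-numbered libraries correlated by -0.0078 to 0.029 across genes. With the replicate block 6 members were higher and 8 lower, and 3183 of all genes were higher and 3297 lower, in place of 3233 and 3339. Depth limits Fdps, Pmvk and Tm7sf2 most, which had at most 129 counts in each library.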
